A study of Mus musculus with 4 samples.

Results

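The genes described here are 10 components of antigen presentation by major histocompatibility complex (MHC) class I and of the immunoproteasome. They were chosen by name from the pathway, with earlier results of these data known, and all 10 were found among the 55367 gene names of the deposited count table. They are the heavy chain genes H2-D1 and H2-K1, the light chain gene B2m, the transporter genes Tap1 and Tap2, the loading chaperone gene Tapbp, the immunoproteasome subunit genes Psmb8, Psmb9 and Psmb10, and the activator gene Nlrc5. Together they held 46391 and 34314 reads in the anti-CD93 libraries and 32395 and 36313 in the control IgG libraries, and all of them passed the filter on low counts.

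The RNA came from endothelial cells of KPC tumours, a mouse pancreatic cancer line grown under the skin of C57BL/6 mice. The cells were sorted as positive for CD31, an endothelial surface protein, and negative for CD45, that of leukocytes. There were 2 libraries from mice given an anti-CD93 antibody, whose target CD93 is a receptor on endothelial cells, and 2 libraries from mice given a control rat IgG. In both groups the antibody was injected 48 hours before the cells were taken, in mice whose tumours could be felt. Both groups had the same strain and tumour line, and the tumours were transplants outside the pancreas. The sources used here give no age or sex, and they do not say whether the libraries of a group came from separate mice or from pools. The p-values therefore measure the spread between these libraries, which may be technical. The study asked which genes of tumour endothelium responded to the antibody.

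MHC class I molecules carry short peptides from inside the cell to its surface, where CD8 T cells read them. The proteasome cuts proteins into these peptides, the TAP transporter moves them into the endoplasmic reticulum, and tapasin holds empty class I molecules there until a peptide binds. In the immunoproteasome Psmb8, Psmb9 and Psmb10 take the places of the constitutive catalytic subunits Psmb5, Psmb6 and Psmb7. Interferon-gamma raises most of these genes, and NLRC5 is an activator of class I gene transcription. Endothelial cells line the vessel wall and show class I molecules to passing T cells.

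The promoters of H2-K1, H2-D1, B2m and Tap1 are printed for reference, and no link from their sequence to the levels was tested. The windows run from 250 bases before to 50 bases after the start site, 5′ to 3′ on the gene's strand, and are RefSeq sequence of GRCm38.p6. RefSeq windows matched 8 of the 10 genes by symbol, and the others were Tap2 and Nlrc5. Capitals mark matches, on either strand, to the interferon-stimulated response element, to a palindromic kB site of the kind NF-kB binds, to TTCACTTC (an site for interferon regulatory factors), TGACGC (like the X2 box of class I promoters) and ATTGG (an inverted CCAAT box). The H2-K1 window is chr17:34000298-34000597 on the minus strand and that of H2-D1 is chr17:35262844-35263143 on the plus strand. That of B2m is chr2:122147437-122147736 and that of Tap1 is chr17:34187306-34187605, both on the plus strand.
H2-K1: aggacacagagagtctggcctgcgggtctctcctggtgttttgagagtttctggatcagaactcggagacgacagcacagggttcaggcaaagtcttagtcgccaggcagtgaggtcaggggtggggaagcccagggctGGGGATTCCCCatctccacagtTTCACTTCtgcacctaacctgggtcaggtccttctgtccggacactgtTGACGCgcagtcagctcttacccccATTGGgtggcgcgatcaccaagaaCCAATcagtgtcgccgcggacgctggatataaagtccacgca
H2-D1: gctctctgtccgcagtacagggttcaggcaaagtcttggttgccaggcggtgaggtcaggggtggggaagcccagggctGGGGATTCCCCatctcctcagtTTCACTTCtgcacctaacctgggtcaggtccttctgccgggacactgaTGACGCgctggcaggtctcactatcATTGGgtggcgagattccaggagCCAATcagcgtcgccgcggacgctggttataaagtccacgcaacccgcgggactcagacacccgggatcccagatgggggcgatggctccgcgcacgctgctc
B2m: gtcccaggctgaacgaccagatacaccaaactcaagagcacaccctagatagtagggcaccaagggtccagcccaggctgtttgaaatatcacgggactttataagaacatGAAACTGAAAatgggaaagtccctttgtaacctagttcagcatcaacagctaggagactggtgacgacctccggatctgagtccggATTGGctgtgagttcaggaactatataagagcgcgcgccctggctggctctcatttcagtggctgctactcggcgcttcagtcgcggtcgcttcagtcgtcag
Tap1: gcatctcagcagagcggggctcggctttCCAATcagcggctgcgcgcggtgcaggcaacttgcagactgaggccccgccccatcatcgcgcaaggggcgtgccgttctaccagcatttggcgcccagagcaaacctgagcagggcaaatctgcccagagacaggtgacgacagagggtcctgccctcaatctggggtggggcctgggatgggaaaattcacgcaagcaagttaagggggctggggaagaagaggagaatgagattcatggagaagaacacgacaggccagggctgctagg

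The H2-K1 and H2-D1 windows held the same 5 matches in the same order. The kB match began at -111 in H2-K1 and at -171 in H2-D1, counted from the RefSeq start site, and the longest identical run between the windows was 47 bases. Aligned at that run without gaps, 176 of 240 bases were identical, or 73.3%. The kB letters occurred in 10 of 32817 RefSeq promoter windows of this length, or 0.0305%. Of those 10 windows, 4 belonged to class I genes (2 start sites of H2-K1, 1 of H2-D1 and 1 of H2-Q6). The 2 H2-K1 windows overlap and hold the same site, at -111 and -125 from their own start sites. The kB search used 1 exact string that both heavy chain windows hold, so the class I share is no test of enrichment. The searches for the interferon regulatory factor site and the X2-like letters also used exact strings held by both windows. TTCACTTC was in 1.5%, TGACGC in 7.39% and ATTGG in 37.4% of all windows. B2m held the interferon-stimulated response element at -139, which 3.43% of windows hold, and ATTGG at -53. A search for TTCNNNGAA (the interferon-gamma activated site, not in capitals) matched Psmb8 among the 8 genes with a window, at -97, and 8.29% of all windows. No capital matches overlapped each other in the printed windows. The Tap1 and Psmb9 genes point away from each other, their RefSeq start sites lay 226 bases apart and their windows had 275 bases in common, so the printed Tap1 window is also most of that of Psmb9. Letter matches describe the sequence and show no binding.

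Control IgG replicate 2 stood apart from the other libraries. It had the fewest assigned reads (9364294, against 12264231 to 17813993) but the most detected genes (27718, against 23796 to 25430), and the share of mitochondrial ribosomal RNA was 6.20% in it, against 11% to 11.8% elsewhere. Endothelial markers were abundant in every library: 10 genes summed to 8408 and 8660 CPM with anti-CD93 and to 8482 and 10320 CPM with control IgG. CPM, the unit of level used here, is a gene's reads as a share of the library's scaled total. RNA of other cell types was present, since 7 tumour epithelial markers summed to 2380 and 1992 CPM with anti-CD93 and to 1703 and 2467 CPM with control IgG, and 6 fibroblast markers summed to 1761 and 2196 CPM with anti-CD93 and to 2103 and 2835 CPM with control IgG. Leukocyte markers were low, with 11 genes at a sum of 31.6 and 26.4 CPM with anti-CD93 and 17.1 and 32.8 CPM with control IgG, and the 6 erythroid markers at 28.4 and 18.8 CPM with anti-CD93 and 9.22 and 19.9 CPM with control IgG. The 6 pericyte markers summed to 451 and 335 CPM with anti-CD93 and to 373 and 348 CPM with control IgG.

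Most of the 10 genes were nearly level across both anti-CD93 libraries and control IgG replicate 1. Control IgG replicate 2 stood above them for all but Psmb9. Of the 10 genes, 9 were highest in control IgG replicate 2, as were 38.7% of all 16945 genes tested. Its level exceeded the mean of the other libraries by a median log2 difference of 0.61 over the 10 genes, against 0.016 over all genes tested. Across the other 3 libraries the 10 genes spanned a median log2 range of 0.13, from 0.038 for H2-D1 to 0.41 for Tap2. Over all genes it was 0.33, but these were not matched for level and include many at low counts. The mean was lower with anti-CD93 for all 10 genes, but 0 of them passed edgeR's quasi-likelihood test at an adjusted p under 0.05, as did 0% of all genes. At an unadjusted p under 0.05, 1 of the 10 genes (Psmb10) passed, against 4.49% of all genes in either direction and 2.5% lower. Over all genes, DESeq2 called 5 and limma-voom 0. By DESeq2 and by limma-voom 0 of the 10 genes passed as well.

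**Figure D1:**
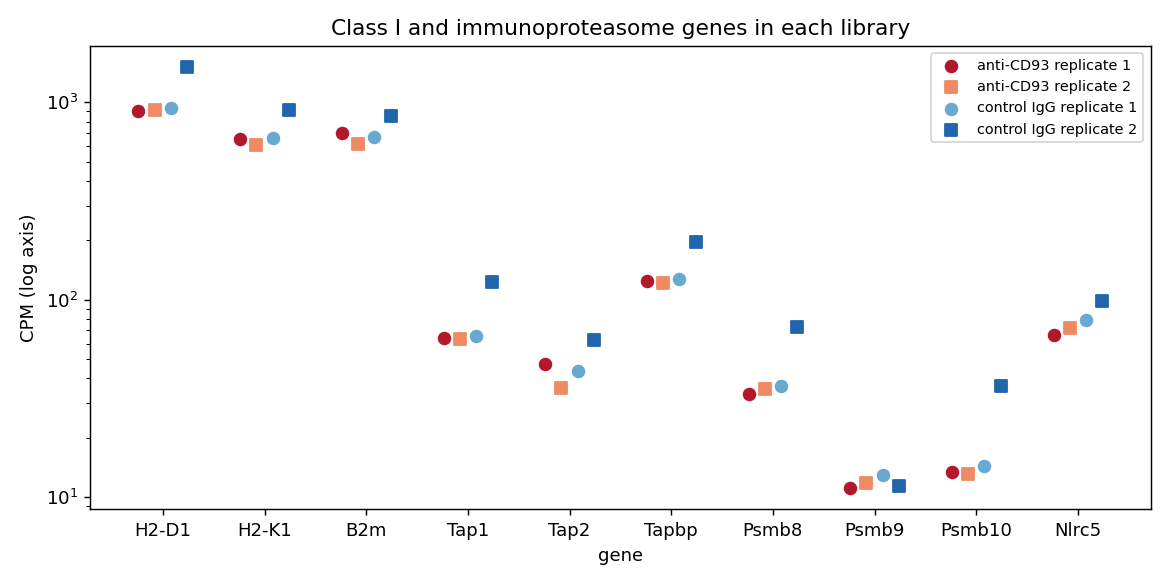
CPM of each gene (log axis) in the 4 libraries, 1 point per library, with anti-CD93 in red shades left of control IgG in blue shades. For every gene but Psmb9 the dark blue square, control IgG replicate 2, is the highest point, as in H2-D1 at 1512 CPM against 909.9 to 934 CPM in the other libraries.

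The summed markers of professional antigen-presenting cells were highest in control IgG replicate 2. So were the sums of endothelial, fibroblast, tumour epithelial and leukocyte markers. The lead was small for tumour epithelial (2467 against at most 2380 CPM) and leukocyte markers (32.8 against at most 31.6 CPM). The pericyte and erythroid sums were highest in anti-CD93 replicate 1. The 8 antigen-presenting cell genes summed to 92.6 and 104 CPM with anti-CD93 and to 66.1 and 207 CPM with control IgG. Cd74, the class II invariant chain, was at 41.8 and 47.4 CPM with anti-CD93 and at 26.3 and 104 CPM with control IgG. All 6 tested markers had a negative log2 fold change, and all 6 had a positive one without control IgG replicate 2. Flt3 and Xcr1, which mark dendritic cells, had few reads in any library. They had 9 and 6 reads in anti-CD93 replicate 1 and 6 and 4 in control IgG replicate 2. Both had 0 reads in anti-CD93 replicate 2 and in control IgG replicate 1. Class II genes can also be made by endothelial cells, and in bulk RNA fewer cells of a type and less RNA per cell cannot be told apart. The part of antigen-presenting cells in the class I values was not tested. Nor was that of tumour epithelial cells or fibroblasts, whose marker sums were higher.

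The heavy chains bind the peptide and face the T cell receptor. H2-D1 (chromosome 17, 35262730 to 35267499 in GRCm38, plus strand) was at 909.9 and 915 CPM in anti-CD93 replicates 1 and 2, and at 934 and 1512 CPM in control IgG replicates 1 and 2. Both anti-CD93 libraries lay below both controls, by little below the first and by more below the second. The means were 913 ± 3.77 CPM with anti-CD93 and 1223 ± 408 CPM with control IgG (SD, n = 2 each), a log2 fold change of -0.42 (SE 0.24, adjusted p = 0.812 by edgeR). H2-K1 (chromosome 17, 33996017 to 34000347, minus strand) was at 650.1 and 607 CPM with anti-CD93 and at 657 and 919 CPM with control IgG. It had the same shape as H2-D1, with means of 628 ± 30.5 CPM with anti-CD93 and 788 ± 185 CPM with control IgG (SD, n = 2 each) and a log2 fold change of -0.33 (SE 0.20, adjusted p = 0.812 by edgeR). The heavy chains resemble other class I genes over much of their length. Of the 100-base windows of H2-D1 transcripts 3.59%, and of those of H2-K1 0.957%, occurred unchanged in transcripts of another gene in GENCODE vM21. Shorter shared stretches were not counted.

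B2m (chromosome 2, 122147686 to 122153083, plus strand) encodes beta-2 microglobulin, the light chain of class I molecules. It was at 699.8 and 617 CPM with anti-CD93 and at 672 and 855 CPM with control IgG, so the groups overlapped. The means were 659 ± 58.2 CPM with anti-CD93 and 763 ± 129 CPM with control IgG (SD, n = 2 each), and the log2 fold change was -0.21 (SE 0.19, adjusted p = 0.823 by edgeR). B2m had no 100-base window in common with another gene.

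Tap1 and Tap2 encode the subunits of the peptide transporter. Tap1 (chromosome 17, 34187553 to 34197225, plus strand) was at 64.5 and 63.6 CPM with anti-CD93 and at 65.9 and 124 CPM with control IgG. The anti-CD93 libraries and the first control library were alike, and the second control library was far above them, with a log2 fold change of -0.56 (SE 0.28, adjusted p = 0.812 by edgeR). Tap2 (chromosome 17, 34203527 to 34216321, plus strand) was at 47.4 and 35.7 CPM with anti-CD93 and at 43.6 and 62.3 CPM with control IgG. Its groups overlapped, and the log2 fold change was -0.35 (SE 0.25, adjusted p = 0.812 by edgeR). Tapbp (chromosome 17, 33915899 to 33929292, plus strand), which encodes tapasin, was at 125 and 122 CPM with anti-CD93 and at 127 and 197 CPM with control IgG. Both anti-CD93 libraries lay just under the first control library, with a log2 fold change of -0.39 (SE 0.23, adjusted p = 0.812 by edgeR). Of the exon bases of Tap2, 18.5% also lay in exons of Gm15821 or Gm20496 on the other strand, and of those of Tapbp 29.0% also lay in exons of Zbtb22 or Gm19412. For Psmb8 it was 14.7%, with Gm20496. Counting ignored strand, so strand did not separate reads of partners on opposite strands there. Zbtb22 lies on the plus strand, as Tapbp does, so strand could not separate those reads either.

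The immunoproteasome subunits differed in their pattern. Psmb8 (chromosome 17, 34197721 to 34201454, plus strand), which cuts after hydrophobic residues, was at 33.5 and 35.5 CPM with anti-CD93 and at 36.5 and 72.5 CPM with control IgG. Psmb10 (chromosome 8, 105935735 to 105938444, minus strand), which takes the place of Psmb7, was at 13.5 and 13.1 CPM with anti-CD93 and at 14.4 and 36.8 CPM with control IgG. In both genes control IgG replicate 2 was far above the other libraries. The log2 fold change was -0.66 for Psmb8 (SE 0.31) and -0.94 for Psmb10 (SE 0.40), which was the lowest of the 10, each with an adjusted p of 0.812 by edgeR. Psmb9 (chromosome 17, 34181987 to 34187764, minus strand), which takes the place of Psmb6, was at 11.1 and 11.8 CPM with anti-CD93 and at 13.0 and 11.5 CPM with control IgG. Of the 10 genes, it was the one that was not highest in control IgG replicate 2, and its groups overlapped. Its log2 fold change was -0.095 (SE 0.25, adjusted p = 0.939 by edgeR). Psmb9 also had the fewest reads, 197 and 162 with anti-CD93 and 159 and 107 with control IgG, against 239 and 180 with anti-CD93 and 176 and 344 with control IgG for Psmb10.

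Tap1 and Psmb9 differed in pattern although they lie side by side. Control IgG replicate 2 minus replicate 1 was 0.91 on the log2 scale for Tap1 and -0.18 for Psmb9. The exons of these genes overlap by 212 bases in the annotation used for counting, which is 3.87% of the exon bases of Tap1 and 5.79% of those of Psmb9. For H2-K1 and H2-D1, on the same chromosome, that control difference was 0.48 and 0.69. Whether promoter sequence bears on these differences was not tested.

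Nlrc5 (chromosome 8, 94434356 to 94527272, plus strand) was at 66.3 and 71.9 CPM with anti-CD93 and at 78.7 and 99.0 CPM with control IgG. Both anti-CD93 libraries were below both controls, and here the first control library also stood above them. The log2 fold change was -0.36 (SE 0.19, adjusted p = 0.812 by edgeR). Nlrc5 was the one gene of the 10 whose control libraries differed by less (0.33 on the log2 scale) than its groups did. In the other 9 genes the controls differed by more than the groups, as in 69.7% of all genes tested.

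**Figure D2:**
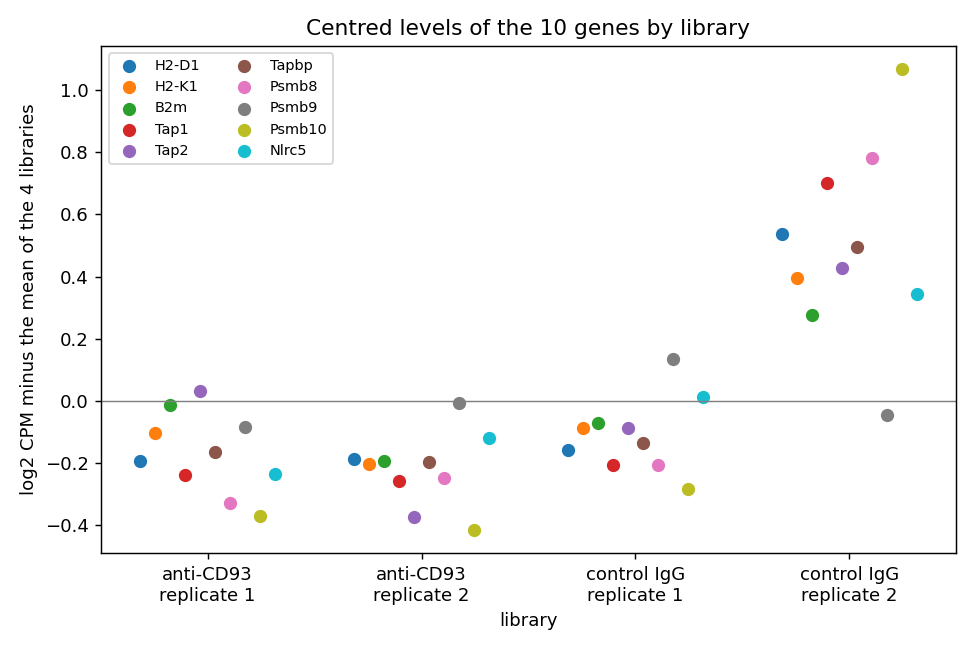
log2 CPM of each of the 10 genes minus that gene's mean over the 4 libraries, with anti-CD93 libraries left of control IgG libraries and 1 colour per gene. In control IgG replicate 2, 9 genes lie above 0, Psmb10 highest at 1.07, and Psmb9 lies at -0.044.

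Counted over the set, 7 of the 10 genes had both anti-CD93 libraries below both controls and 0 had them above, against 19.7% and 20.1% of all genes tested and 39.8% for both directions. A negative log2 fold change was found in 10 of 10 genes, against 50.9% of all genes. The median log2 fold change was -0.38 over the 10 genes and -0.0092 over all genes tested. The same control library enters each of these counts.

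Leaving out each control library in turn moved these values. Without control IgG replicate 2, all 10 log2 fold changes were still below 0, against 49.4% of all genes, but their median was -0.065. The log2 fold change was then -0.035 (SE 0.093) for H2-D1, -0.065 (SE 0.098) for H2-K1, -0.030 (SE 0.11) for B2m, -0.043 (SE 0.12) for Tap1, -0.064 (SE 0.18) for Tap2 and -0.045 (SE 0.098) for Tapbp. It was -0.083 (SE 0.14) for Psmb8, -0.11 (SE 0.22) for Psmb10, -0.18 (SE 0.23) for Psmb9 and -0.19 (SE 0.11) for Nlrc5. Apart from Nlrc5, each value was smaller than its SE, and 0 of the 10 genes passed (adjusted p = 0.724 to 0.961 by edgeR), against 0.0767% of all genes. In that fit control IgG replicate 1 is assumed to vary like the anti-CD93 libraries.

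Without control IgG replicate 1, with the other control library as the sole reference, the median was -0.63 and 9 of the 10 genes passed edgeR's test, all lower with anti-CD93. That fit has a control arm of 1 library, the one that stood apart, and its spread comes from the anti-CD93 libraries alone, so its p-values describe that library and not the treatment. In it 26.8% of all genes passed and 12.8% passed as lower. The log2 fold change was -1.47 for Psmb10 (adjusted p = 4.85e-04 by edgeR), -1.07 for Psmb8 (adjusted p = 4.82e-04), -0.95 for Tap1 (adjusted p = 3.56e-04) and -0.73 for H2-D1 (adjusted p = 5.52e-04). It was -0.0018 for Psmb9 (adjusted p = 0.996 by edgeR).

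**Figure D3:**
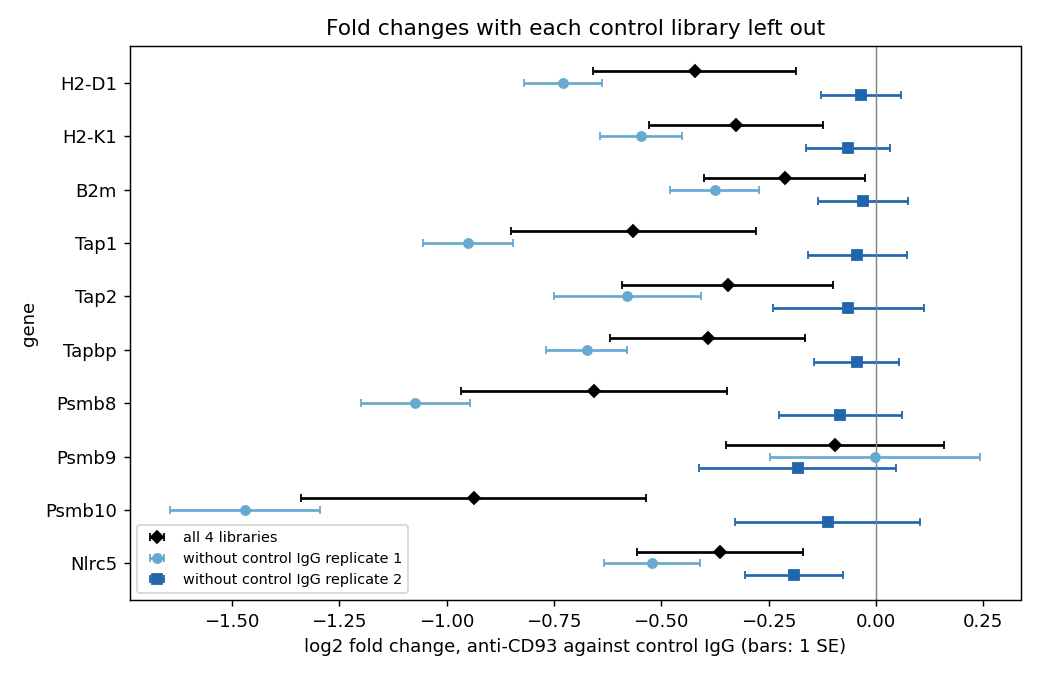
log2 fold change of each gene, anti-CD93 against control IgG, with bars of 1 SE, for all 4 libraries and with each control library left out. Without control IgG replicate 2 the values lie between -0.19 and -0.030, and without control IgG replicate 1 they lie between -1.47 and -0.0018.

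Correcting every library for exon length and base composition (GC content), an alternative added after seeing the data, changed several values by over 1.5 times. The log2 fold change was then -0.27 for H2-D1, -0.094 for H2-K1, -0.33 for Tap1, -0.070 for Tap2, -0.081 for Tapbp and -0.58 for Psmb10. For these 6 genes it was nearer to 0 than before. It moved less, also towards 0, for Psmb8 (-0.44, from -0.66) and Nlrc5 (-0.32, from -0.36). It was -0.58 for B2m, further below 0 than before, and 0.056 for Psmb9, on the other side of 0.

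Set side by side per length, the 10 genes spanned a wide range of levels. RPKM, the CPM per kilobase of exon, averaged 827 over the 4 libraries for B2m (718 to 994), 414 for H2-D1 (353 to 586) and 241 for H2-K1 (207 to 313). Tapbp followed at 39.3 RPKM (33.6 to 54.2). Tap1 at 14.5, Psmb8 at 13.2, Tap2 at 12.5, Psmb10 at 11.4 and Nlrc5 at 9.30 RPKM followed, and each neighbour in that order overlapped the next in its range over the libraries. Psmb9 was lowest at 3.23 RPKM (3.04 to 3.54), below the lowest value of Nlrc5 (7.80). The exon length is that of all annotated transcripts together (3660 bases for Psmb9, 860 for B2m), so the RPKM of a gene with many transcript forms is understated.

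Ratios within a library do not depend on its depth. The log2 ratio of the RPKM of H2-K1 to that of H2-D1 was -0.67 and -0.78 with anti-CD93 and -0.70 and -0.91 with control IgG, so H2-D1 was the higher heavy chain in all 4 libraries. For Psmb8 to Psmb5 it was -0.69 and -0.068 with anti-CD93 and -0.33 and 0.066 with control IgG. For Psmb10 to Psmb7 it was 0.035 and 0.23 with anti-CD93 and 0.0088 and 1.44 with control IgG. For Psmb9 to Psmb6 it was -2.94 and -2.88 with anti-CD93 and -2.65 and -3.33 with control IgG. The balance of immunoproteasome to constitutive subunit in control IgG replicate 2 was therefore the highest of the 4 libraries at the Psmb10 place. It was the highest at the Psmb8 place too, but there anti-CD93 replicate 2 was close (0.066 against -0.068). At the Psmb9 place it was the lowest. Of the 100-base windows of Psmb5 transcripts, 22.2% occur in other genes, so its count and the Psmb8 to Psmb5 ratio are uncertain. The log2 ratio of Tap1 to Tap2 was -0.091 and 0.30 with anti-CD93 and 0.063 and 0.46 with control IgG. The groups overlapped in each of the 5 ratios (two-sided exact permutation p = 0.667 to 1, adjusted p = 1 over the 5 pairs, where 2 against 2 libraries cannot go below 0.333).

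**Figure D4:**
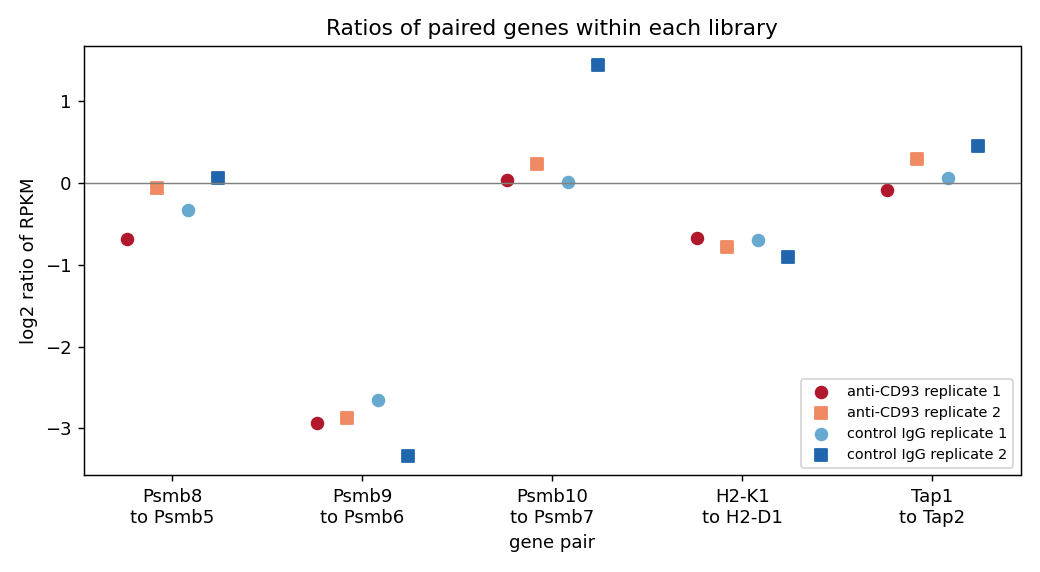
log2 ratio of the RPKM of paired genes in each library, 1 point per library, with anti-CD93 in red shades left of control IgG in blue shades. Control IgG replicate 2 is highest for Psmb10 to Psmb7 at 1.44 and lowest for Psmb9 to Psmb6 at -3.33.

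None of the constitutive catalytic subunits passed the test. Psmb5 was at 14.3 and 9.88 CPM with anti-CD93 and at 12.2 and 18.4 CPM with control IgG. Psmb6 was at 43.7 and 44.2 CPM with anti-CD93 and at 41.6 and 59.1 CPM with control IgG, and Psmb7 was at 26.4 and 22.3 CPM with anti-CD93 and at 28.6 and 27.3 CPM with control IgG. Their log2 fold changes were -0.33 (Psmb5), -0.19 (Psmb6) and -0.20 (Psmb7). Without control IgG replicate 2 they were 0.0018, 0.077 and -0.23, so the sign turned for Psmb5 and Psmb6. Summed, these 3 genes were at 84.5 and 76.4 CPM with anti-CD93 and at 82.4 and 104.8 CPM with control IgG, and the 3 immunoproteasome genes were at 58.1 and 60.3 CPM with anti-CD93 and at 63.8 and 121 CPM with control IgG. The other core subunits, Psma1 to Psma7 and Psmb1 to Psmb4, were 9 lower and 2 higher of 11, with a median log2 fold change of -0.12 and none past the test. Of these, Psmb3 was at 18.1 and 15.8 CPM with anti-CD93 and at 15.2 and 30.6 CPM with control IgG, and Psma4 and Psma2 had log2 fold changes of -0.28 and -0.25. With control IgG replicate 2 left out these were 0.16 for Psmb3, -0.014 for Psma4 and -0.39 for Psma2, and the median of the 11 genes was -0.034.

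PA28, the proteasome activator that interferon-gamma raises, is made of Psme1 and Psme2. Psme1 was at 109.8 and 92.4 CPM with anti-CD93 and at 104 and 230.4 CPM with control IgG, a log2 fold change of -0.72 (SE 0.34, adjusted p = 0.812 by edgeR) that became -0.043 without control IgG replicate 2. Psme2 was at 29.0 and 28.6 CPM with anti-CD93 and at 28.6 and 47.2 CPM with control IgG, a log2 fold change of -0.39 that became 0.0099. In both genes, as in Tap1, Psmb8 and Psmb10, control IgG replicate 2 was well above the other libraries. Among the 10 activator and assembly genes, 7 were lower and 3 higher, with a median of -0.18, which became 5 and 5 with a median of 0.00090 without control IgG replicate 2. The assembly chaperone Psmg1 had a log2 fold change of -0.36. Of the 18 genes of the regulatory cap that feeds proteins into the core, 12 were lower and 6 higher, with a median of -0.11, which became 9 and 9 with a median of -0.0053 without control IgG replicate 2. Psmd3 was at 75.4 and 74.6 CPM with anti-CD93 and at 86.6 and 127 CPM with control IgG, and Psmc3 and Adrm1 had log2 fold changes of -0.29 and -0.45. When control IgG replicate 2 was left out, the value was -0.21 for Psmd3, -0.20 for Psmc3 and 0.011 for Adrm1. None of these activator, assembly or cap genes passed the test (smallest adjusted p = 0.812 by edgeR).

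Of the other class I heavy chain genes, 18 of 21 names were found and 12 were tested, with 9 lower and 3 higher, a median log2 fold change of -0.34 and none past the test. Without control IgG replicate 2 the median was -0.066. H2-T22 was at 56.9 and 52.0 CPM with anti-CD93 and at 71.9 and 79.9 CPM with control IgG, so that here the 2 controls were alike, and its log2 fold change was -0.48 (SE 0.18, adjusted p = 0.812 by edgeR), or -0.40 without control IgG replicate 2. Of its 100-base windows, 31.5% occur in other genes, so its count is uncertain. H2-T23, which encodes the nonclassical molecule Qa-1, was at 51.6 and 53.0 CPM with anti-CD93 and at 57.5 and 85.3 CPM with control IgG. H2-Q6 was at 142 and 118 CPM with anti-CD93 and at 136 and 207 CPM with control IgG. Of the 100-base windows of H2-Q6, 13% occur in other genes, so its count is uncertain too. Of 9 tested class I-like genes 7 were lower and 2 higher, with a median of -0.31, which became 5 and 4 with a median of -0.0020 without control IgG replicate 2. Procr, which encodes the endothelial protein C receptor, was at 40.3 and 41.0 CPM with anti-CD93 and at 58.3 and 74.5 CPM with control IgG, a log2 fold change of -0.71 (SE 0.20, adjusted p = 0.812 by edgeR) that was -0.52 without control IgG replicate 2. Fcgrt, the neonatal Fc receptor gene, was at 64.7 and 66.3 CPM with anti-CD93 and at 65.9 and 97.1 CPM with control IgG, and Cd1d2, near the detection limit, averaged 0.404 CPM with anti-CD93 and 1.09 CPM with control IgG (SD 0.251 and 0.274, n = 2 each).

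The general chaperones and peptidases of the loading route did not share the pattern. Of 12 genes, 6 were lower and 6 higher with anti-CD93, with a median log2 fold change of 0.053, which became 3 and 9 with a median of 0.12 without control IgG replicate 2. Lnpep, an aminopeptidase used in cross-presentation, was at 232 and 225 CPM with anti-CD93 and at 208 and 116 CPM with control IgG, so control IgG replicate 2 was the lowest library here. Hspa5, the chaperone BiP, was at 1141 and 1248 CPM with anti-CD93 and at 1092 and 825 CPM with control IgG. Tapbpl, a peptide editor related to tapasin, was at 12.8 and 14.6 CPM with anti-CD93 and at 14.7 and 24.3 CPM with control IgG.

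Of 24 regulators of class I transcription, 17 were lower and 7 higher, with a median log2 fold change of -0.13 and none past the test. Irf1, an interferon-induced activator of class I and Psmb9 transcription, was at 75.9 and 86.4 CPM with anti-CD93 and at 88.9 and 122 CPM with control IgG (log2 fold change -0.38). Stat2, of the type I interferon pathway, was at 101 and 90.5 CPM with anti-CD93 and at 106 and 152 CPM with control IgG. Rela, the NF-kB subunit p65, was at 64.8 and 74.2 CPM with anti-CD93 and at 75.5 and 134 CPM with control IgG. These 3 genes had the smallest p of the list, and without control IgG replicate 2 their log2 fold changes were -0.13 (Irf1), -0.14 (Stat2) and -0.12 (Rela). Over the list, both anti-CD93 libraries lay below both controls in 9 of 24 genes and above them in 1, against 19.7% and 20.1% of all genes, and the median without control IgG replicate 2 was -0.100, with 15 lower and 9 higher. Rfx5, which binds the X box of class I promoters, was at 11.9 and 11.3 CPM with anti-CD93 and at 12.2 and 17.7 CPM with control IgG.

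The 5 genes nearest to the mean pattern of the 10 genes, among 6438 genes of at least 20 CPM outside the lists, were Mov10, Ptpn23, Ap2m1, Mcm7 and Xylt2. Their distance, taken over the centred log2 CPM of the 4 libraries, was 0.014 to 0.037, against 0.036 for Tapbp, the nearest of the 10 genes, and 0.66 for Psmb10, the farthest. Mov10, an RNA helicase, was at 34.2 and 33.1 CPM with anti-CD93 and at 35.6 and 53.8 CPM with control IgG. Ap2m1, a subunit of the clathrin adaptor, was at 140.5 and 138 CPM with anti-CD93 and at 149 and 231 CPM with control IgG.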

How the data were processed

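Per the file headers, the authors made the deposited raw read counts with featureCounts 2.0.1 on GENCODE vM25 (GRCm38), summed by gene name, without paired-end, strand or multi-mapping options. Each mate counted alone, and 66.3% to 74.8% of counts from 1 to 10 were even, so reads exceed independent fragments. STAR 2.7.5b and DESeq2 1.28.1 are named in the submitters' processing notes without their roles. The deposited table called normalized held identical counts (0 of 221468 cells differed).

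Genes were kept by filterByExpr (minimum count 10), which left 16945, and scaled by TMM. Groups were compared over all genes with edgeR 4.0.16 (R 4.3.3; robust quasi-likelihood test, group as the only term) and Benjamini-Hochberg adjustment at 0.05. Length and GC trends (loess, span 0.3) covered 98.1% of genes. DESeq2 1.42.0 and limma 3.58.1 were alternatives. The named genes were the 10 members, up to 3 genes with the smallest p per related list, Psme1, Psme2, Irf1, Rfx5 and the 5 nearest patterns; 1 further regulator is not reported here. Members and lists were chosen with earlier results of these data known. RPKM are TMM-scaled CPM per kilobase of merged exons. Ratios were tested with scipy 1.17.1 (exact permutation). Shared 100-base windows were counted in GENCODE vM21 transcripts, and H2-Q8, H2-Q9 and H2-T9 were not found by name. Alternatives changed the scaling, filter, tool, dispersion, replicate block and libraries, and halved the counts. The number of libraries, 2 per group, limits the precision.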

Additional observations from a re-analysis of the deposited data

How the results depend on the processing

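The count of genes called over all genes, 0 by edgeR, was 48 with no count filter, 14 with the replicate number as a block, 5 by DESeq2, and 0 to 4549 with 1 library left out. Same-numbered libraries did not deviate together (correlation of deviations -0.016). This value cannot show whether they were handled together. Under the replicate block the median over the 10 genes was -0.36 and Psmb10 was at -0.80 (adjusted p = 0.552 by edgeR). The median ran from -0.63 to -0.065 with 1 library left out and from -0.39 to -0.30 under the other settings (no filter and DESeq2 also put the median of all genes at -0.094 and -0.13), and 10 of 10 genes stayed lower except with length and GC trends removed (9 of 10), where Psmb9 was at 0.056. With 1 library left out, the difference in log2 ratio ran from -0.56 to 0.062 (Psmb8 to Psmb5), -0.26 to 0.43 (Psmb9 to Psmb6), -1.30 to 0.13 (Psmb10 to Psmb7), -0.031 to 0.18 (H2-K1 to H2-D1) and -0.35 to 0.040 (Tap1 to Tap2). Halving the counts left the SE of Psmb9 at 0.25 and put that of Psmb10 at 0.39.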
